A study of Mus musculus with 6 samples.

Results

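The genes described here encode 10 proteins of the adherens junction and the desmosome, the cell contacts that hold the colonic epithelium together. They were taken by name from a table of 36977 genes: Cdh1, Cdh17, Ctnnb1, Epcam, Jup, Dsp, Dsg2, Dsc2, Pkp2 and Pkp3. Each matched 1 row, and all 10 had a mean of at least 0.5 FPKM (fragments relative to transcript length and library size), the level from which genes were tested. The libraries are bulk RNA-seq of colonic tissue from wild-type (WT) mice with colitis from dextran sodium sulfate (DSS), a polysaccharide that damages the colonic lining. The DSS group and the group given DSS and deoxycholic acid (DCA), a secondary bile acid made by gut bacteria, were represented by 3 libraries each, with the numbers 1, 2 and 4. All 6 libraries carry the same protocol label, 2% DSS for 7 days and then DCA by enema, so the groups rest on the treatment label, which names DSS alone or DSS and DCA. No source used here says what enema the DSS group received, how old the mice were or whether each library came from a separate mouse, so that p-values measure the spread between libraries, which may be technical. No group without DSS was analysed here.

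In an adherens junction, cadherins of neighbouring cells bind each other outside the cell and catenins tie their tails to actin. E-cadherin (Cdh1) is the classical cadherin of epithelia, β-catenin (Ctnnb1) binds its tail and also carries Wnt signals in the nucleus, and plakoglobin (Jup) is the close relative of β-catenin found at both kinds of junction. In a desmosome, the cadherins desmoglein and desmocollin (Dsg2 and Dsc2 are the pair of simple epithelia such as the colon) are coupled through plakoglobin and plakophilins (Pkp2 and Pkp3) to desmoplakin (Dsp), which anchors keratin filaments. Cdh17, the liver-intestine cadherin, has a short tail that does not bind catenins. Epcam, an adhesion molecule of the lateral membrane, stabilizes claudins, and its loss causes tufting enteropathy in humans.

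RefSeq upstream windows (GRCm38.p6) were matched for 4 of the 10 members by symbol, Epcam, Jup, Ctnnb1 and Dsp. Those of 3 are shown, because Epcam carries the highest level and because Jup and Ctnnb1, whose products share partners, had the steadiest ratio of any pair of members. Each holds the 250 bases before a RefSeq start, from 5′ to 3′ on the strand of the gene. Capitals mark CACCTG or its reverse complement CAGGTG, the E-box letters that the repressors Snai1, Snai2, Zeb1 and Zeb2 are known to bind in the Cdh1 promoter. Epcam lies at chr17:87635729-87635978 on the plus strand, Jup at chr11:100397791-100398040 on the minus strand and Ctnnb1 at chr9:120933150-120933399 on the plus strand. Both Ctnnb1 windows lie inside its GENCODE M21 gene model, which begins at chr9:120929216, and the first of them is printed.
Epcam: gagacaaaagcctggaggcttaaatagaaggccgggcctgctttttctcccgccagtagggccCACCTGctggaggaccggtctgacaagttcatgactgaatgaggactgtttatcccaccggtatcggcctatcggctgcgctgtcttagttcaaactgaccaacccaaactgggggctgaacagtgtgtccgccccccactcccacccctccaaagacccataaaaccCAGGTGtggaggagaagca
Jup: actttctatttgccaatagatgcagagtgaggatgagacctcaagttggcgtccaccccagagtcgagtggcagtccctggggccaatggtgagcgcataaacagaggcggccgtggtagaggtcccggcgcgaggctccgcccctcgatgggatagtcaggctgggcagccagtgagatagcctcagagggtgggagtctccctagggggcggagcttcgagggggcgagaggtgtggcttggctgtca
Ctnnb1: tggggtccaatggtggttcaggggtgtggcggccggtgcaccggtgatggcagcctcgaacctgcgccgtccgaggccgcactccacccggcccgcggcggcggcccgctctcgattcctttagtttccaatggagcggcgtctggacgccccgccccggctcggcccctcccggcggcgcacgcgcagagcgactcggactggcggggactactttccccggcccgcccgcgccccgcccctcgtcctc
The Epcam window held the letters at 2 places, beginning 187 and 19 bases before the start, as CACCTG and as CAGGTG. The windows of Jup and Dsp and both windows of Ctnnb1 held neither. Among all 32851 windows of this length, 17.2% held at least 1 match on either strand and 2.06% at least 2. A match is only a run of letters, and its use in this tissue was not measured.

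The libraries stood apart within the groups. The share of summed FPKM from the mitochondrial genome was 29.4% to 31.4% in DSS and 30.5% in DSS+DCA replicate 1, beside 47.6% and 46.7% in the other two DSS+DCA libraries, replicates 2 and 4. Protein-coding genes of the nucleus took 45.0% to 46.2% in the first 4 of these and 21.0% and 24.3% in the last 2. DSS replicate 4 lay close to a mixture of DSS replicates 1 and 2. Its absolute log2 deviation from their weighted mean had a median of 0.048 over 1131 abundant protein-coding genes, where those replicates differed by 0.21, and of 0.041 over the 10 members, where they differed by 0.27. If it is a mixture, the SDs, CVs, intervals and separations below rest on fewer than 3 independent DSS libraries and understate the spread. Without DSS replicate 4 the members' median log2 change was -0.49, beside -0.47 with it, and limma called 0 of all tested genes (1412 at an unadjusted p under 0.05), so that fit says nothing about the members' calls. The cell type label reads intestinal epithelial cells, and epithelial genes were abundant. A reference of 14 epithelial genes that holds no member (keratins, claudins, Vil1, Lgals4 and others) summed to between 8282 and 9750 FPKM in DSS. It summed to 6675, 4074 and 4690 FPKM in DSS+DCA replicates 1, 2 and 4. Muscle, nerve and immune transcripts were present too. All 7 of 7 smooth muscle markers were tested, and they summed to 40.2, 658 and 332 FPKM in DSS replicates 1, 2 and 4 and to 1454, 89.4 and 1040 FPKM in DSS+DCA replicates 1, 2 and 4. The 8 leukocyte markers summed to between 19.2 and 20.5 FPKM in DSS and to between 25.5 and 60.1 FPKM in DSS+DCA, and the 6 markers of enteric neurons and glia to between 1.04 and 9.55 and between 3.30 and 47.1 FPKM. No marker of these 3 lists was at 0 in any library. Endothelial markers (6 genes) summed to at most 3.23 FPKM in DSS and 8.60 in DSS+DCA, fibroblast markers (6 genes) to between 11.3 and 29.3 FPKM over all libraries, and the 3 measured mesothelial markers to less than 1 FPKM in every library. In bulk tissue, fewer epithelial cells and less junction RNA per cell cannot be told apart, and the part that any of these differences had in the results below was not tested.

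**Figure D1:**
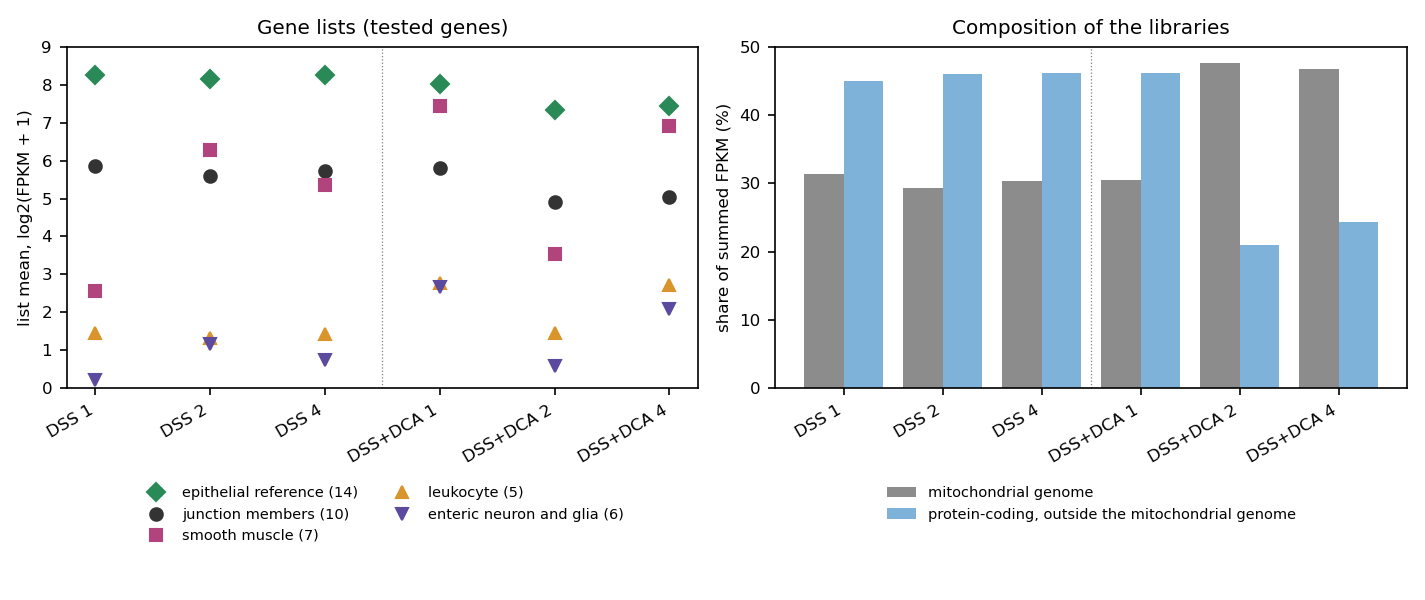
Left, mean log2(FPKM + 1) of each gene list in each of the 6 libraries, over the tested genes of the list (number in brackets). Right, share of summed FPKM (percent) from the mitochondrial genome and from protein-coding genes outside it. The members and the epithelial reference are lowest in DSS+DCA replicates 2 and 4, where the mitochondrial share is 47.6% and 46.7%, while smooth muscle markers vary within both groups.

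With DCA, no member passed the test. The fitted log2 change on FPKM as deposited was below 0 for all 10, from -0.81 for Cdh17 to -0.01 for Dsp, with a median of -0.47 beside -0.09 for all 14611 tested genes, of which 60.5% were below 0. It was below 0 for 9 with TMM-style scaling, 6 with quantile normalization and 7 after rescaling to protein-coding genes outside the mitochondrial genome. This rescaling moved the median of all genes by 0.32, to 0.23, and that of the members to -0.03. At an adjusted p under 0.05 (limma, Benjamini-Hochberg over all tested genes) 0 of 10 were called, where 82 genes (0.561%) were called in all. At an unadjusted p under 0.05, Pkp2 was lower, which is 1 of 10, where 12.4% of tested genes were lower at that level. The authors' deposited table likewise marks 0 of 10 members as significant, with q-values from 0.419 for Cdh17 to 0.970 for Dsp, beside 1174 of 36977 genes (3.17%) marked in all. The DSS+DCA libraries differed among themselves, with most members below DSS in replicates 2 and 4 and within or above the DSS range in replicate 1.

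**Figure D2:**
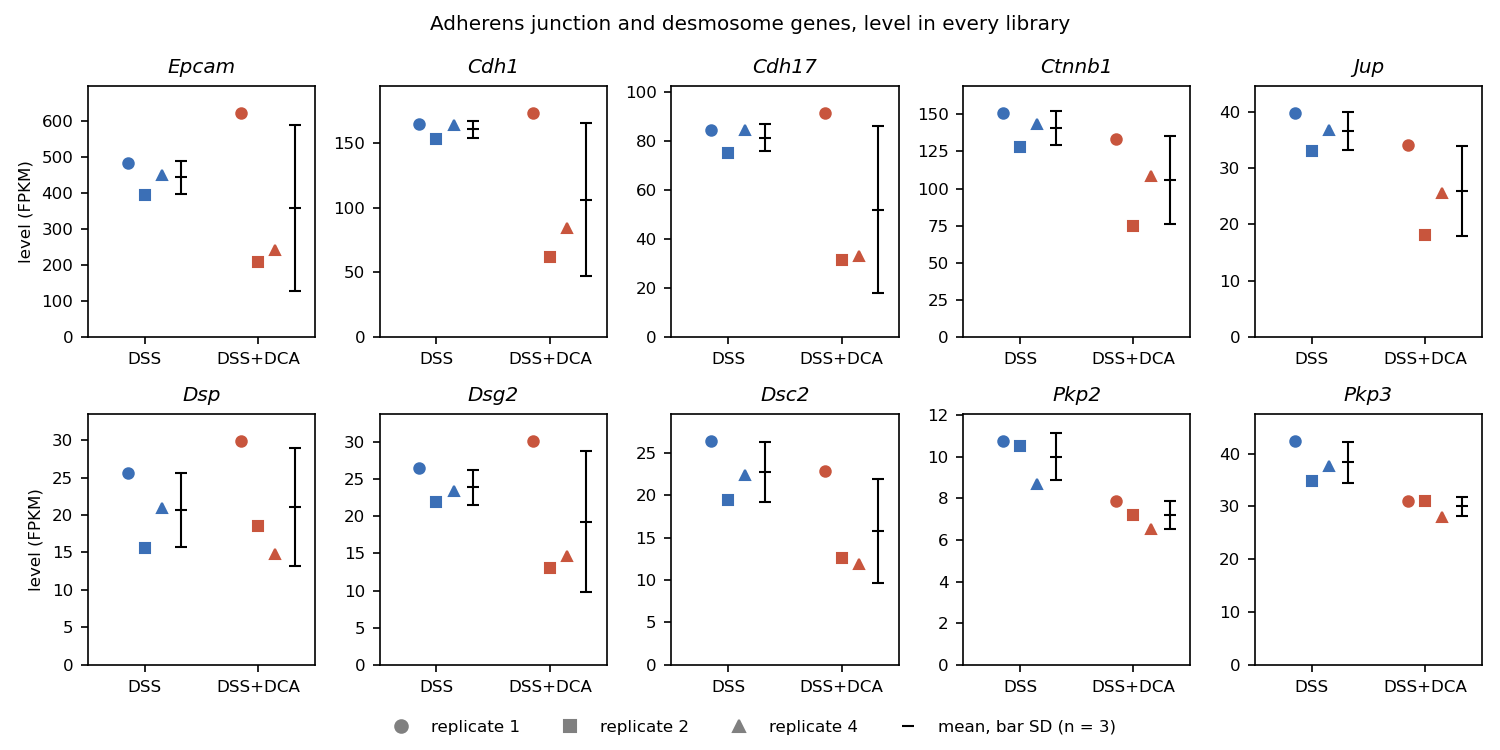
Level of each member in FPKM (linear axis from 0) in 3 DSS and 3 DSS+DCA libraries. Symbols give the replicate number and black bars the mean ± SD (n = 3). In Epcam, Cdh1, Cdh17 and Dsg2 DSS+DCA replicate 1 lies above all DSS libraries and replicates 2 and 4 below them, whereas the 3 DSS+DCA libraries lie together and below DSS in Pkp2 and Pkp3.

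Among the cadherins of the adherens junction and lateral membrane, the DSS+DCA libraries were split. Cdh1 measured 165, 153 and 164 FPKM in DSS replicates 1, 2 and 4 and 173, 61.6 and 84.1 FPKM in DSS+DCA replicates 1, 2 and 4. The DSS libraries were tightly grouped, DSS+DCA replicate 1 was slightly higher than all of them, and the other two were far below, so that the groups overlapped. The means were 161 ± 6.75 and 106 ± 59.1 FPKM (SD, n = 3 in each group), with a log2 change of -0.73 ± 0.37 (SE, 95% interval -1.60 to 0.15, adjusted p = 0.371). Cdh17 measured 84.6, 75.1 and 84.8 FPKM in DSS and 91.6, 31.7 and 33.0 FPKM in DSS+DCA, in the same replicate order. DSS+DCA replicate 1 again exceeded every DSS library while replicates 2 and 4 were nearly equal to each other at the low end. Its means were 81.5 ± 5.51 and 52.1 ± 34.2 FPKM (SD), with the lowest log2 change among the members, -0.81 ± 0.41 (SE, 95% interval -1.77 to 0.15, adjusted p = 0.360).

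Epcam was the most abundant member in every library. It measured 484, 394 and 450 FPKM in DSS replicates 1, 2 and 4 and 622, 209.7 and 241 FPKM in DSS+DCA replicates 1, 2 and 4. Its DSS+DCA libraries thus held both the highest and the lowest values of the 6. The log2 change was -0.48 ± 0.42 (SE, 95% interval -1.47 to 0.50, adjusted p = 0.586). Within a library, Epcam stood at 5.24 to 5.72 times the FPKM of Cdh17 in DSS and at 6.62 to 7.31 times in DSS+DCA. That ratio does not depend on how the libraries were scaled, and its groups did not overlap. It was picked out after its values were seen, from 45 ratios between members, of which 8 separated the groups.

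The catenins varied less between the DSS+DCA libraries. Ctnnb1 measured 151, 128 and 143 FPKM in DSS and 134, 74.6 and 108 FPKM in DSS+DCA (replicates 1, 2 and 4 in each). DSS+DCA replicate 1 lay inside the DSS range and replicates 2 and 4 below it. The log2 change was -0.45 ± 0.25 (SE, 95% interval -1.05 to 0.15, adjusted p = 0.412). Jup measured 39.8, 33.1 and 36.8 FPKM in DSS and 34.1, 18.1 and 25.6 FPKM in DSS+DCA, and all 6 libraries ranked in the same order for Jup as for Ctnnb1, with DSS+DCA replicate 1 above DSS replicate 2 in both. Its log2 change was -0.52 ± 0.25 (SE, 95% interval -1.11 to 0.08, adjusted p = 0.350). The ratio of Ctnnb1 to Jup, the genes whose windows are printed above, was 3.79, 3.87 and 3.90 in DSS and 3.92, 4.11 and 4.23 in DSS+DCA. The ratio was slightly higher in every DSS+DCA library than in any DSS library. It was also among the 8 of 45 ratios that separated the groups. Its SD over the 6 libraries was 0.060 log2 units, the smallest among the 45 pairs of members. The largest was 0.591 for Cdh17 and Pkp3.

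The desmosomal cadherins also had DSS+DCA replicates 2 and 4 below DSS, as Cdh1 did, at a lower level. Dsg2 measured 26.5, 21.9 and 23.3 FPKM in DSS and 30.1, 13.0 and 14.6 FPKM in DSS+DCA replicates 1, 2 and 4. Its partner Dsc2 measured 26.4, 19.4 and 22.4 FPKM in DSS and 22.9, 12.6 and 11.9 FPKM in DSS+DCA. For both, DSS+DCA replicates 2 and 4 lay below every DSS library, while replicate 1 was above the DSS range for Dsg2 and inside it for Dsc2. The log2 changes were -0.39 ± 0.32 for Dsg2 (SE, 95% interval -1.14 to 0.36, adjusted p = 0.561) and -0.55 ± 0.28 for Dsc2 (SE, 95% interval -1.20 to 0.11, adjusted p = 0.369). The pair stayed close to equal in FPKM, with a Dsg2 to Dsc2 ratio of 1.00 to 1.13 in DSS and 1.03 to 1.32 in DSS+DCA. Dsg2 was higher relative to Cdh1 and Cdh17 in every DSS+DCA library than in any DSS library. These ratios, too, were picked out of the 45 after their values were seen. The Cdh1 to Dsg2 ratio was 6.23 to 7.03 in DSS and 4.75 to 5.75 in DSS+DCA. The Cdh17 to Dsg2 ratio was 3.19 to 3.64 and 2.26 to 3.04. For Dsc2 the same ratios overlapped between the groups.

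The plakophilins were the members whose DSS+DCA libraries were alike. Pkp2 measured 10.8, 10.5 and 8.70 FPKM in DSS and 7.88, 7.18 and 6.54 FPKM in DSS+DCA. Pkp3 measured 42.4, 34.8 and 37.7 FPKM in DSS and 31.0, 31.0 and 28.0 FPKM in DSS+DCA. In both, all 3 DSS+DCA libraries lay below all 3 DSS libraries. These were the 2 of 10 members whose groups separated, beside 17.8% of tested genes that separated with DSS+DCA lower, so the share was near the background. Pkp2 averaged 9.99 ± 1.13 and 7.20 ± 0.669 FPKM (SD), with a log2 change of -0.42 ± 0.17 (SE, 95% interval -0.82 to -0.02, unadjusted p = 0.0414, adjusted p = 0.286). Pkp3 averaged 38.3 ± 3.85 and 30.0 ± 1.73 FPKM (SD), with a log2 change of -0.34 ± 0.17 (SE, 95% interval -0.74 to 0.06, adjusted p = 0.361). The ratio of Pkp3 to Pkp2 was 3.31 to 4.34 in DSS and 3.93 to 4.32 in DSS+DCA, with the groups overlapping.

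Desmoplakin had nearly equal means in the groups. Dsp measured 25.5, 15.7 and 20.9 FPKM in DSS and 29.9, 18.5 and 14.8 FPKM in DSS+DCA, and the groups overlapped over most of their range. The means were 20.7 ± 4.95 and 21.1 ± 7.90 FPKM (SD), and the log2 change was -0.01 ± 0.30 (SE, 95% interval -0.72 to 0.71, adjusted p = 0.991). Relative to the cadherins Dsp was higher in every DSS+DCA library than in any DSS library, ratios that were picked out after their values were seen. The Dsc2 to Dsp ratio was 1.03 to 1.24 in DSS and 0.684 to 0.808 in DSS+DCA, and the Cdh1 to Dsp ratio 6.46 to 9.76 in DSS and 3.33 to 5.79 in DSS+DCA. The ratios of Cdh17 and Dsg2 to Dsp separated the groups in the same direction. In all, 8 of the 45 ratios between members separated the groups, 4 of 9 with Dsp and 4 of the other 36. The 45 ratios share 10 genes, so these are not independent counts. Among single genes, 3454 of 14611 tested separated the groups in either direction, and the share over ratios of other genes was not computed. With 3 libraries against 3 an exact permutation test of any 1 ratio cannot go below p = 0.1.

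**Figure D3:**
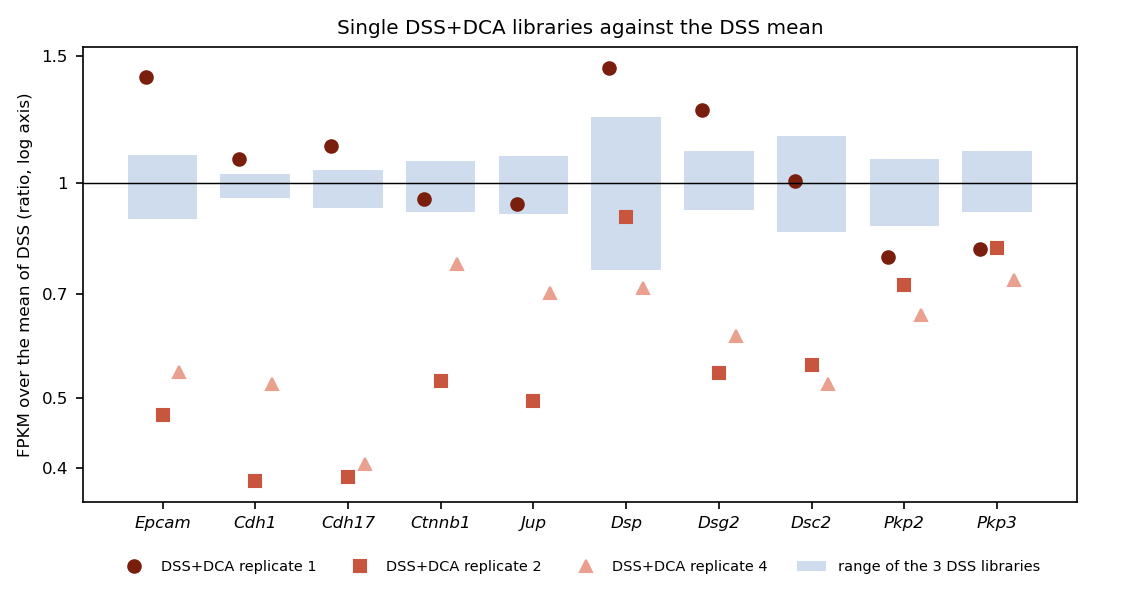
FPKM of each member in the single DSS+DCA libraries divided by its mean in DSS (log axis), with the range of the 3 DSS libraries as a pale bar. Replicate 1 reached 1.40 times the DSS mean for Epcam and 1.45 times for Dsp, while replicates 2 and 4 lay at 0.383 to 0.894 and 0.405 to 0.770 times the DSS mean over the 10 members.

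Counted by library, DSS+DCA replicate 1 was above the DSS range in 5 members, inside it in 3 and below it in 2, a split near that of all tested genes (47.3%, 26.4% and 26.3%). Replicate 2 was below the DSS range in 9 members and replicate 4 in all 10, where 53.6% and 53.4% of all tested genes lay below it in these libraries. In 7 members replicates 2 and 4 were both below the DSS range and replicate 1 was not, which held for 21.3% of tested genes. Replicate 1 stood at 2.83 times the mean of replicates 2 and 4 for Cdh17, 2.76 times for Epcam and 2.38 times for Cdh1, but at 1.05 times for Pkp3 and 1.15 times for Pkp2. The CV among DSS libraries ran from 4.21% for Cdh1 to 23.9% for Dsp, and among DSS+DCA libraries from 5.78% for Pkp3 to 65.7% for Cdh17. Without DSS+DCA replicate 1, 5 members were called, all lower with DCA, where 8.53% of all tested genes were called in that fit. They were Cdh1 (log2 change -1.15, adjusted p = 0.0244), Cdh17 (-1.30, adjusted p = 0.0165), Epcam (-0.97, adjusted p = 0.0252), Dsg2 (-0.75, adjusted p = 0.0395) and Dsc2 (-0.83, adjusted p = 0.0442). That fit set only DSS+DCA replicates 2 and 4, with mitochondrial shares of 47.6% and 46.7%, against DSS. The part of these shares in the calls was not tested. Without DSS+DCA replicate 2 most log2 changes moved the other way. Among them were Cdh1 (-0.41), Epcam (-0.19), Ctnnb1 (-0.22), Dsg2 (-0.17) and Jup (-0.29). Those of Pkp2 (-0.42) and Pkp3 (-0.36, beside -0.34 with all libraries) did not. In that fit 0 members were called, where 171 of all tested genes were called. Without DSS+DCA replicate 4 the log2 change of Epcam was -0.29 and that of Dsg2 -0.25. Those of Ctnnb1 (-0.49) and Jup (-0.53) were slightly lower than with all libraries. With DSS+DCA replicates 2 and 4 left out for their high mitochondrial share, an alternative chosen after seeing the data, the 1 remaining DSS+DCA library was set against 3 DSS libraries and is assumed to vary as they do. In that fit 6 of 10 members had changes above 0, and 0 of 10 were called, where 1.51% of all tested genes were called. With array weights, which let noisy libraries count less, 9 members other than Dsp were called lower, where 42.6% of all tested genes were called.

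The levels of the members kept nearly the same order in both groups. In DSS, by FPKM, which is per length, Epcam was followed by Cdh1, Ctnnb1 and Cdh17, whose ranges did not overlap, although the lowest Cdh1 value (153) and the highest Ctnnb1 value (151) nearly met. Pkp3 and Jup came next with overlapping ranges, then Dsg2, Dsc2 and Dsp with overlapping ranges, and Pkp2 last. In DSS+DCA the order of the means was the same except that Dsp (21.1 FPKM) ranked above Dsg2 (19.2) and Dsc2 (15.8), with all 3 ranges overlapping. There the ranges of Cdh1, Ctnnb1 and Cdh17 overlapped as well.

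The members were also set against other epithelial genes. The epithelial reference had a median log2 change of -0.80 with 11 of 14 genes lower and 0 called. Its mean log2 level was 8.27, 8.14 and 8.27 in DSS replicates 1, 2 and 4 and 8.02, 7.33 and 7.43 in DSS+DCA. When the log2 values of each library were centred on that mean, 8 of 10 members had a change above 0, with a median of 0.17 beside 0.54 for all tested genes. Only Dsp was called on this scale, with a log2 change of 0.62 ± 0.20 (SE, 95% interval 0.15 to 1.10, adjusted p = 0.0492), where 33.2% of all tested genes were called. Of all genes called on it, 4720 were higher and 129 lower. Dsp measured -3.54, -4.09 and -3.82 log2 units relative to the reference in DSS and -3.06, -3.04 and -3.46 in DSS+DCA, without overlap. The share of tested genes without overlap on this scale was not computed. Cdh1 (-0.09 ± 0.22, SE) and Cdh17 (-0.18 ± 0.25, SE) were the members with changes below 0. The intervals of the other members on this scale included 0 and reached at most 0.76, for Pkp3. This scale asks how a member differed from the reference genes, and a change in the reference itself moves every gene.

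**Figure D4:**
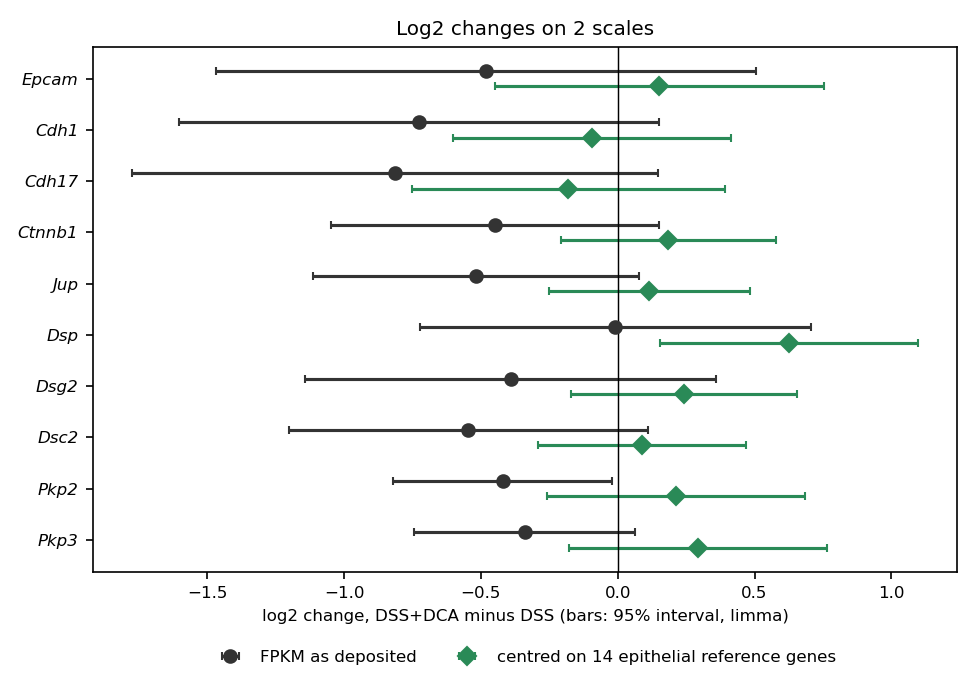
Log2 change (DSS+DCA minus DSS) of each member with its 95% interval from limma, from FPKM as deposited (circles) and after centring each library on 14 epithelial reference genes (diamonds). On the deposited scale all 10 estimates are below 0, and on the centred scale 8 are above 0 and the interval of Dsp alone excludes 0.

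Other genes of these junctions, their partners and regulators, and the β-catenin pathway were read from 10 lists with 82 genes, of which 63 were tested. Krt8, Krt18, Krt19, Krt20, Spint2, Elf3, Esrp1 and Cdx2 are also in the epithelial reference, so these lists and the reference overlap. None of the 63 was called (smallest adjusted p = 0.104, for the keratin gene Krt18). Of them 43 had lower fitted values and 20 higher, where 60.5% of all tested genes were lower. Their median log2 change was -0.23. At an unadjusted p under 0.05, 19 were lower and 1 was higher, where 16.7% of all tested genes passed in either direction. Among other cadherins and nectins 3 of 6 tested were lower. The nectin gene Nectin2, which encodes an immunoglobulin-type adhesion molecule of adherens junctions, measured 40.8, 38.5 and 42.2 FPKM in DSS and 35.3, 13.2 and 22.9 FPKM in DSS+DCA (adjusted p = 0.281). The placental cadherin Cdh3 was below the filter at 0.0473 ± 0.0290 and 0.309 ± 0.255 FPKM (SD), and the endothelial cadherin Cdh5 measured 0.518 ± 0.0556 and 0.590 ± 0.273 FPKM (SD, adjusted p = 0.899). Of the other catenins and actin linkers 8 of 12 tested were lower. The α-catenin gene Ctnna1 averaged 10.3 ± 1.91 and 11.2 ± 2.60 FPKM (SD, adjusted p = 0.838) and the p120-catenin gene Ctnnd1 35.8 ± 5.11 and 30.6 ± 8.06 FPKM (SD, adjusted p = 0.640). The actin linker vinculin, Vcl, averaged 0.622 ± 0.205 and 2.03 ± 1.87 FPKM (SD, adjusted p = 0.407) and reached 4.14 FPKM in DSS+DCA replicate 1, the library with the highest smooth muscle sum.

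The desmosomal genes outside the members were below the filter in 7 of 11 cases, the desmogleins and desmocollins of stratified epithelia Dsg1a, Dsg1b, Dsg1c, Dsg3, Dsg4, Dsc1 and Dsc3. Perp, a tetraspan membrane protein of desmosomes, averaged 165 ± 9.18 and 91.8 ± 46.1 FPKM (SD, adjusted p = 0.265). Of the plakin genes, which encode linkers to keratin, Evpl averaged 10.9 ± 1.60 and 7.23 ± 0.712 FPKM (SD, adjusted p = 0.231) and Ppl 0.914 ± 0.0620 and 1.24 ± 0.0193 FPKM (SD, adjusted p = 0.428). Keratins that attach to desmosomes were lower in 6 of 6 tested genes (median log2 change -0.89), with Krt8 at 2528 ± 315 and 1434 ± 526 FPKM (SD, adjusted p = 0.245) and Krt19 with an adjusted p = 0.121. The Epcam partners and the matriptase system were lower in 5 of 5 tested genes (median -0.79). Cldn7, the claudin that Epcam binds, averaged 359 ± 31.6 and 177 ± 65.9 FPKM (SD, adjusted p = 0.162). The protease matriptase, St14, which cleaves Epcam, averaged 89.3 ± 3.28 and 51.3 ± 5.42 FPKM (SD, adjusted p = 0.116), and its inhibitor Spint1 22.7 ± 2.94 and 19.3 ± 5.56 FPKM (SD, adjusted p = 0.618).

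The repressors of Cdh1 were scarce. Zeb1 averaged 0.364 ± 0.207 FPKM in DSS and 1.15 ± 0.491 in DSS+DCA (SD, log2 change 0.64 ± 0.22 SE, adjusted p = 0.234). Its DSS+DCA libraries measured 1.60, 0.626 and 1.24 FPKM (replicates 1, 2 and 4). The groups of Zeb1 did not overlap (limma, unadjusted p = 0.0223). Its highest value lay in the library with the highest Cdh1 and the highest smooth muscle sum, and a link to either was not tested. Snai2 was below the filter at 0.456 ± 0.0970 and 0.483 ± 0.323 FPKM (SD). Zeb2 was also below it, at 0.176 ± 0.0323 and 0.457 ± 0.0170 FPKM (SD), without overlap. Of the 6 listed repressors 3 were tested, 1 with a lower and 2 with higher fitted values, and 0 were called. Of 11 epithelial transcription and splicing regulators 9 were lower and 0 called. Grhl2, an activator of Cdh1, averaged 3.19 ± 0.0974 and 2.82 ± 0.366 FPKM (SD, adjusted p = 0.681). Cdx2, the intestinal homeobox factor known to activate Cdh17, measured 120, 129 and 124 FPKM in DSS and 186, 102 and 113 FPKM in DSS+DCA (adjusted p = 0.937). DSS+DCA replicate 1 lay above the DSS range and replicates 2 and 4 below it, as for Cdh17. Replicates 2 and 4 were below and replicate 1 was not in 21.3% of tested genes. A link between Cdx2 and Cdh17 was not tested.

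The β-catenin destruction complex and β-catenin targets showed no call among 12 tested genes. Fitted values of 4 of 6 destruction complex genes were lower. That of Apc, the scaffold lost in colon tumours, was higher, at 2.45 ± 0.510 and 3.33 ± 1.02 FPKM (SD, log2 change 0.31, adjusted p = 0.510). The target Axin2 averaged 1.92 ± 0.904 and 2.28 ± 1.56 FPKM (SD, adjusted p = 0.909), and 4 of 6 tested targets had fitted changes above 0. The genes that regulate cadherin cleavage and turnover were lower in 2 of 4 cases. Of the cell type lists 3 genes were called, among 82 calls that became 0 without DSS replicate 1 or without DSS replicate 4. The colonocyte gene Alpi (adjusted p = 0.0486) and the goblet cell gene Agr2 (adjusted p = 0.0346) fell, with 7 of 7 colonocyte and 7 of 7 goblet cell genes lower. The fibroblast proteoglycan gene Dcn rose from 1.20 ± 0.410 to 4.50 ± 0.609 FPKM (SD, adjusted p = 0.0486), while 4 of 6 fibroblast genes had lower fitted values (median log2 change -0.27).

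The genes most like the members in pattern were sought by the root mean square difference between centred log2 profiles over the 6 libraries, taking the mean profile of the 10 members. The closest 5 outside the members were Akirin1 (0.027 log2 units), Dlat (0.057), Chchd2 (0.059), Stx7 (0.060) and Efhd2 (0.061). Akirin1 measured 12.8, 10.6 and 11.3 FPKM in DSS and 12.6, 6.18 and 7.09 FPKM in DSS+DCA. Of the members, Dsc2 (0.082) and Dsg2 (0.090) lay nearest to their own mean profile and Dsp (0.287) farthest, all of them farther than Akirin1. Akirin1 was picked as the closest of all tested genes outside the members, so this order says nothing about the members.

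In GRCm38, by the GENCODE M21 gene models matched through the gene identifiers, the members lie on 9 chromosomes. Epcam spans chr17:87635979-87651129, Cdh1 chr8:106603351-106670246, Cdh17 chr4:11758147-11817895 and Ctnnb1 chr9:120929216-120960507. Jup spans chr11:100368958-100397763, Dsp chr13:38151294-38198577, Pkp2 chr16:16213318-16272712 and Pkp3 chr7:141078218-141090510. Dsg2 and Dsc2 lie in the desmosomal cadherin cluster on chromosome 18. The authors' build was not given in the sources used here.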

How the data were processed

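RNA-seq libraries of colonic tissue were made from oligo(dT)-selected RNA with dUTP marking of the second strand, per the labels' protocols. StringTie 2.1.6, HISAT2 2.2.1, cutadapt 1.9, edgeR and DESeq2 appear, without a role, in the submitters' processing notes. The authors' deposited values are FPKM per gene and library, and a scaling between libraries is not stated. The authors also deposited a fold (ratio of DSS+DCA over DSS), which equalled the ratio of mean FPKM within 1%, its log2 value, and p-values and q-values of their own comparison, per the file headers.

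Depth per library is unknown. At the best scale only 34.4% to 38.2% of low FPKM lay within 0.05 of whole fragments, so reads were not recovered and no count test was run. On the scale log2(FPKM + 1), 14611 genes averaging 0.5 FPKM or more were fitted in limma 3.58.1 (R 4.3.3, eBayes with trend, two-sided, no covariates), with Benjamini-Hochberg adjustment over all of them and calls at an adjusted p under 0.05. Fold changes on this scale understate low genes. The script was tested on simulated data. Alternatives were a pseudocount of 0.1, other filters, TMM-style scaling, quantile normalization, rescaling to protein-coding genes outside the mitochondrial genome, centring on the epithelial reference, array weights, a replicate block and leaving out libraries. Named genes were the 10 members, every called gene of the lists, 20 genes written down with them and Zeb2, which was added later. The members and lists were chosen with earlier results of these data known. Upstream bases came from RefSeq.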

Additional observations from a re-analysis of the deposited data

How the results depend on the processing

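Over 15 other settings and 1 added after seeing the data, the members' median log2 change shifted from its value of -0.47 by less than 0.48, the SD of that median over the DSS+DCA libraries, except to 0.17 when centred on the epithelial reference and to 0.064 without DSS+DCA replicates 2 and 4. That SD is larger than the change itself, so a shift that removed the change would also lie within it. Protein-coding rescaling brought the members' median to -0.03, and leaving out single libraries gave -0.74 to -0.33. The number of members called was 0 except after centring (1), with array weights (9) and without DSS+DCA replicate 1 (5), so its range was 0 to 5 on leaving out single libraries. In these fits 33.2%, 42.6% and 8.53% of all tested genes were called, in that order.

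The count of all called genes (82) became 2 without a filter, 143 with TMM-style scaling, 4849 after centring, 6227 with array weights and 220 without DSS+DCA replicates 2 and 4. Leaving out single libraries gave 0 to 1246, with 0 without DSS replicate 1 or 4 (1503 and 1412 unadjusted), 17 without DSS replicate 2, and 1246, 171 and 10 without DSS+DCA replicates 1, 2 and 4. Protein-coding rescaling turned the balance from 19 higher and 63 lower to 77 higher and 45 lower. With the replicate number as a block 1 gene and no member was called. The labels do not say that a number marks a shared origin, and deviations of same-numbered libraries correlated by -0.144, -0.170 and 0.015, so the libraries were not treated as pairs.

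Signs turned as follows, and the cause was not tested. Centring gave Ctnnb1 0.18, Dsc2 0.088, Dsg2 0.24, Dsp 0.62, Epcam 0.15, Jup 0.11, Pkp2 0.21 and Pkp3 0.29. Quantile normalization gave Ctnnb1 0.042, Dsp 0.28, Epcam 0.066 and Pkp3 0.048, protein-coding rescaling gave Dsg2 0.032, Dsp 0.42 and Pkp3 0.10, and TMM-style scaling gave Dsp 0.13. Without DSS+DCA replicates 2 and 4 the changes were Cdh1 0.11, Cdh17 0.17, Dsc2 0.018, Dsg2 0.33, Dsp 0.54 and Epcam 0.49. On leaving out single libraries Dsp ranged from -0.28 to 0.21. Depth is unknown, so counting error could not be given.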
